A study of Mus musculus with 12 samples.

Results

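The genes described here are 9 members of the LDL receptor family, Lrp1, Lrp2, Lrp4, Lrp5, Lrp6, Lrp8, Lrp10, Vldlr and Sorl1, of 22630 genes with values in each of 12 mouse tumors. They were chosen by gene symbol, as a family, at a time when levels and fold changes of genes in these same tumors were known. Every difference between groups given for them below is therefore a description and not an independent test of the family. All 9 passed the filter on low counts and were among 17561 genes tested, Lrp2 with very few reads.

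RNA sequencing was performed on 12 subcutaneous tumors grown from KCip53-1, a single mouse pancreatic cancer cell line, in 3 groups of 4. The line carries Ptf1a-Cre, TREp53R270H and R26rtTa, so that doxycycline (dox) switches on mutant p53 together with a dsRed reporter, in epithelial cells in which Cre, driven by Ptf1a, has acted. The no-dox tumors received no dox (0 days), the plus-dox tumors received dox for 36 days (0.2 g/l in drinking water with 5% sucrose), and the off-dox tumors received it for 33 days and were then left without it for 3 days. Whether the water of the no-dox mice held sucrose is not given in the sources used here. All groups share the cell line and the host, immunodeficient NSG mice of 8 to 10 weeks that lack mature T, B and NK cells. Each mouse carried 2 tumors from 500000 injected cells each, and the labels do not say which tumors shared a mouse. The p-values treat tumors as independent and measure only the spread between them. The tumors were sequenced whole, so reads come from tumor cells and from host stroma, vessels, muscle and fat.

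Proteins of this family are membrane receptors built from LDL receptor class A repeats, which bind ligands, and in most members from EGF-like repeats and beta-propellers, which release ligands in acid endosomes. Lrp1 and Lrp2 (megalin) are giant endocytic receptors that clear lipoprotein remnants, proteases with their inhibitors and matrix proteins. Vldlr and Lrp8 (apolipoprotein E receptor 2) bind reelin and lipoproteins and signal through the adaptor Dab1. Lrp5 and Lrp6 are the co-receptors that Wnt ligands bind together with Frizzled proteins, and Lrp4 is the receptor for agrin at the neuromuscular junction and binds the Wnt inhibitor sclerostin. Lrp10 and Sorl1 are sorting receptors that move between the Golgi apparatus and endosomes, and Sorl1 also belongs to the sortilin family. In epithelial tumors Lrp5 and Lrp6 are studied for Wnt signaling, and Lrp1 mostly as a receptor of fibroblasts, macrophages and smooth muscle.

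The genes are scattered over the genome and differ in length, a property that returns below. In mm9 coordinates as deposited, Lrp1 lies on the minus strand at chr10:126975214-127058204 with 14891 bp of exons, and Lrp2 on the minus strand at chr2:69262392-69424124 with 15467 bp. Next in exonic length are Lrp4 (chr2:91297688-91354058, plus strand) with 9407 bp, Lrp6 (chr6:134396496-134516931, minus strand) with 9366 bp and Vldlr (chr19:27291510-27328721, plus strand) with 8308 bp. Lrp8 (chr4:107474864-107549445, plus strand) has 7677 bp of exons, Sorl1 (chr9:41776572-41932372, minus strand) 6938 bp and Lrp5 (chr19:3584825-3686564, minus strand) 5172 bp. Lrp10 (chr14:55082984-55089128, plus strand) is the shortest with 3012 bp.

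The promoters of the longest pair, Lrp1 and Lrp2, are shown because their levels in the tumors were far apart. They are the 250 bases before the annotated start of each gene in RefSeq (build GRCm38.p6, so the positions cannot be set beside the mm9 ones), written 5′ to 3′ along the gene with each CG dinucleotide in capitals. Both strands hold CG at the same places. The Lrp1 promoter is chr10:127621149-127621398 on the minus strand, and the Lrp2 promoter is chr2:69586030-69586279 on the minus strand.
Lrp1: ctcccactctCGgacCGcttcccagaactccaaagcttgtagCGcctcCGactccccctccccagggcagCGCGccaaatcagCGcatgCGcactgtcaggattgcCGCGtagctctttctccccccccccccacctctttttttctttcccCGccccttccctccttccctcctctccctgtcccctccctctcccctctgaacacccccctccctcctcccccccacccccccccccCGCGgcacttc
Lrp2: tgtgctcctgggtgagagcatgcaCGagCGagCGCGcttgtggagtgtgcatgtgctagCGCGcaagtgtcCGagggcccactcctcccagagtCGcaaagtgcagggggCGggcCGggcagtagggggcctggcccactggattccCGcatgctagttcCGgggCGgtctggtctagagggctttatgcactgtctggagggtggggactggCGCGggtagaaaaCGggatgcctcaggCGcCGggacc
The Lrp1 window held 13 CG dinucleotides at 67.2% G and C, and 31.5% of the 32851 mouse promoters in the table held at least as many. The Lrp2 window held 18 at 66.4% G and C, a number reached by 21.7% of promoters, and the median promoter held 6. CG content in this window therefore did not order the pair as their RNA levels did. Promoters of 6 of the 9 genes matched the table.

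The family spanned 3 orders of level (RPKM, reads scaled to exonic length and to the mapped reads of a tumor, so that genes can be set side by side). In the mean of 12 tumors Lrp10 was highest at 42.8 RPKM, above 92.8% of all genes, followed by Lrp1 at 38.8 and Lrp5 at 30.0. Lrp6 averaged 12.5 RPKM, Vldlr 3.10, Sorl1 2.10, Lrp8 1.80, Lrp4 0.801 and Lrp2 0.0391. The 3 highest genes together made up 79.7% to 87.5% of the summed RPKM of the family in each tumor. Of the neighbors in this order, Lrp5 over Lrp6, Lrp6 over Vldlr, Lrp8 over Lrp4 and Lrp4 over Lrp2 held in 12 of 12 tumors and Vldlr over Sorl1 in 11 of 12. Sorl1 exceeded Lrp8 in 8 of 12, Lrp10 exceeded Lrp1 in 7 and Lrp1 exceeded Lrp5 in 8, so that the order of these neighbors changed between tumors. It also differed by group. Lrp10 exceeded Lrp1 in 4 no-dox, 2 plus-dox and 1 off-dox tumors, and Lrp1 exceeded Lrp5 in 1, 3 and 4. Sorl1 exceeded Lrp8 in 2, 3 and 3.

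**Figure D1:**
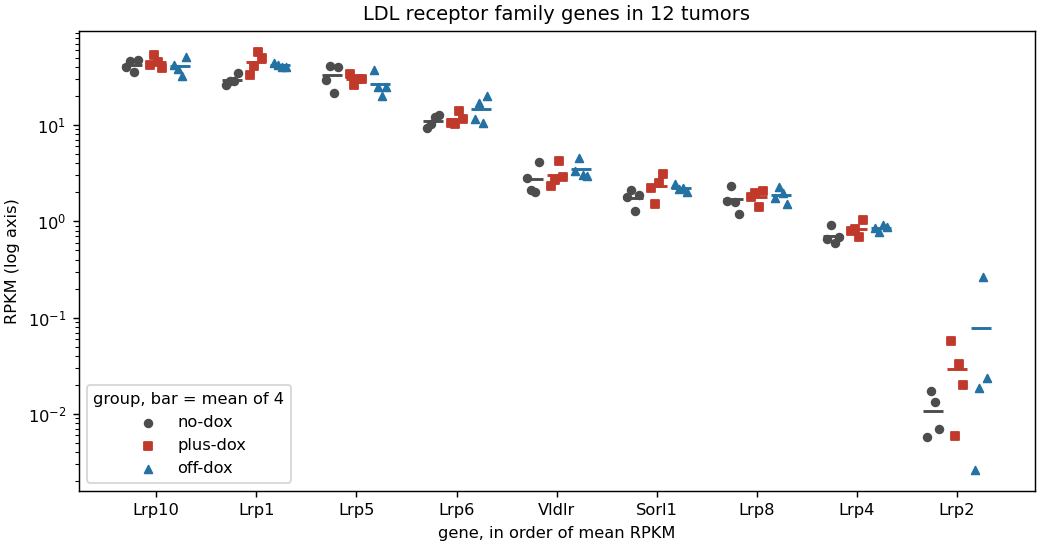
Levels of the 9 genes in each of 12 tumors, as RPKM on a log axis, with genes ordered by mean. Points are tumors, bars are means of 4 tumors per group, and the 3 upper genes, Lrp10, Lrp1 and Lrp5, sit above 20 RPKM in every tumor while Lrp2 stays below 0.3.

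The sum of the 9 genes was 123 ± 18.4 RPKM (SD, n = 4) in the no-dox group, 140 ± 11.7 in the plus-dox group and 132 ± 14.4 in the off-dox group. These sums overlapped between the groups. The share of Lrp1 in the sum was 24.2% ± 2.65 in the no-dox group, 32.0% ± 4.95 in the plus-dox group and 31.7% ± 3.35 in the off-dox group, and in off-dox tumors its lowest value, 28.1%, lay above the highest in no-dox tumors, 27.9%. The share of Lrp5 was 26.5% ± 4.29 in the no-dox group, 21.6% ± 3.56 in the plus-dox group and 20.1% ± 3.98 in the off-dox group. Lrp1 divided by Lrp5 accordingly averaged 0.948 ± 0.277, 1.53 ± 0.388 and 1.62 ± 0.339 in the same order of groups.

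Reads of the 12 libraries set the precision. Reads counted on genes ran from 25673348 to 33137609 in the no-dox group, 20784597 to 30208368 in the plus-dox group and 19845923 to 25088486 in the off-dox group. Of mapped reads, 88.4% to 89.4% were counted on genes in the no-dox group, 82.2% to 87.1% in the plus-dox group and 81.1% to 85.8% in the off-dox group, so that this share also separated the no-dox tumors from the rest. The first principal component of all genes held 49.8% of the variance and set plus-dox 2 and off-dox 4 apart from the other 10 tumors. Trp53, which the transgene encodes, was at 47.7 ± 7.27 RPKM in the no-dox group, 48.5 ± 6.44 in the plus-dox group and 44.0 ± 1.72 in the off-dox group, with overlapping groups (log2 fold changes of 0.04 and -0.08 against no-dox, SE 0.11 each, adjusted p 0.89 and 0.70 in edgeR's quasi-likelihood test). Its level therefore gives no check of the labels, and the groups below stand for dox treatment and not for a measured level of mutant p53. Epithelial markers were present in every tumor, with a lowest Epcam level of 7.76 RPKM in plus-dox 2 against 40.9 to 388 in the others.

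The first comparison, plus-dox against no-dox tumors, asks what goes along with 36 days of dox. None of the 9 genes was called by edgeR's quasi-likelihood test, where a call needs more than a 1.5-fold change, a mean above 0.25 RPKM and, after Benjamini-Hochberg adjustment, a p below 0.1. The background was also 0% of 17561 genes (smallest adjusted p 0.32), so the count says nothing particular of the family. At an unadjusted p under 0.05 there was 1 family gene, Lrp1, among 2400 of all genes. DESeq2, the tool the study used, called 0 family genes with moderated fold changes (0.512% of all genes, or 90) and 1, Lrp1, without moderation (0.729%, or 128). The DESeq2 adjusted p of Lrp1 was 0.078 with moderation, at a log2 fold change of 0.55, which is under the 1.5-fold limit. Without moderation it was 0.072, at 0.62. The median log2 fold change of the 9 genes was 0.16, with 8 of 9 positive, beside 0.01 for all genes.

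The second comparison, off-dox against no-dox tumors, asks what dox leaves behind after 3 days of withdrawal. Again 0 of 9 genes were called by edgeR's quasi-likelihood test, beside 235 of 17561 genes, or 1.34%. An unadjusted p under 0.05 was found for 2 family genes, Lrp1 and Lrp2, and for 3586 of all genes. DESeq2 called 0 family genes with moderated fold changes (2.25% of all genes) and 0 without (3.5%). Its adjusted p for Lrp1 was below 0.1, at 0.058 with moderation and 0.055 without. The log2 fold changes of 0.46 and 0.52 were under the 1.5-fold limit. Lrp2 was also below 0.1 in DESeq2 (0.094 and 0.065) but lay under the limit of 0.25 RPKM. The median log2 fold change was 0.34, with 7 of 9 positive, against 0.01 for all genes. The no-dox tumors served as controls in both of these comparisons, so that the pair is not independent.

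Off-dox against plus-dox tumors, the comparison of withdrawal with continued dox, gave 0 of 9 genes called and 0 of all 17561 genes, or 0%, by edgeR's quasi-likelihood test. At an unadjusted p under 0.05 there were 0 family genes and 537 genes in all, and DESeq2 called 0 family genes with moderated fold changes (0.0228% of all genes) and 0 without (0.0342%). The family's median log2 fold change was 0.06, with 5 of 9 positive, against -0.00 for all genes.

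Lrp1, the endocytic receptor, was the only 1 of the 9 genes with groups that did not overlap, for off-dox against no-dox. Its levels in no-dox tumors 1 to 4 were 26.0, 28.9, 29.0 and 34.7 RPKM, in plus-dox tumors 33.3, 41.2, 57.2 and 49.4, and in off-dox tumors 43.7, 42.0, 40.5 and 40.0. All 4 off-dox tumors were above all 4 no-dox tumors, plus-dox 1 lay inside the no-dox range, and the off-dox tumors were much closer to each other (SD 1.66) than the plus-dox tumors (SD 10.3). With at least 11828 reads per tumor, its counting error was small beside this spread. The log2 fold change was 0.62 (SE 0.17, 95% interval 0.25 to 1.00, adjusted p 0.32 in edgeR's quasi-likelihood test) for plus-dox and 0.51 (SE 0.17, interval 0.14 to 0.89, adjusted p 0.14) for off-dox against no-dox. Off-dox and plus-dox tumors differed by -0.11 (SE 0.17, interval -0.49 to 0.26), which leaves room for a difference in either direction.

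That 1 family gene was higher in every off-dox tumor than in every no-dox tumor stands against 4.99% of all genes, or 876. No family gene was lower in every off-dox tumor (6.4% of all genes). Between plus-dox and no-dox, 0 of the 9 were higher (4.3% of all genes) and 0 lower (3.46%) in every tumor. Between off-dox and plus-dox, 0 were higher (0.552%) and 0 lower (0.934%). Leaving out 1 tumor at a time kept the Lrp1 log2 fold change between 0.46 (without plus-dox 3) and 0.76 for plus-dox and between 0.44 and 0.61 for off-dox against no-dox. Without plus-dox 2 and off-dox 4 it was 0.66 and 0.52. Because the tumors are unsorted, more cells of a type that expresses Lrp1 and more Lrp1 RNA per cell cannot be told apart, here and for every gene below.

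Of the Wnt co-receptors, Lrp5 was lower and Lrp6 higher on average in off-dox than in no-dox tumors, and neither was called. Lrp5 was at 29.3, 41.3, 21.5 and 40.4 RPKM in no-dox tumors 1 to 4, at 33.9, 26.1, 30.1 and 29.9 in plus-dox and at 37.1, 25.1, 20.3 and 24.6 in off-dox tumors. The no-dox tumors spanned the levels of all others but off-dox 3, and the log2 fold changes of -0.13 (SE 0.21) for plus-dox and -0.28 (SE 0.21) for off-dox had intervals that held 0. Lrp6 was at 9.30, 10.3, 12.2 and 12.8 RPKM in no-dox tumors, at 10.6, 10.3, 14.0 and 11.5 in plus-dox and at 11.6, 17.0, 10.6 and 19.9 in off-dox tumors. Here off-dox tumors 2 and 4 stood above the other 10, and the log2 fold change of off-dox against no-dox was 0.44 (SE 0.22, interval -0.04 to 0.91). Lrp5 exceeded Lrp6 by 3.02 ± 0.93 times in the no-dox group, 2.62 ± 0.429 times in the plus-dox group and 1.96 ± 0.875 times in the off-dox group, with overlapping ranges.

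The reelin receptors Vldlr and Lrp8 were expressed at low levels. Vldlr was at 2.79, 2.14, 2.0 and 4.15 RPKM in no-dox tumors 1 to 4, at 2.34, 2.71, 4.29 and 2.92 in plus-dox and at 3.36, 4.51, 3.06 and 2.93 in off-dox tumors. Lrp8 was at 1.64, 2.34, 1.59 and 1.20 RPKM in the no-dox group, at 1.80, 1.98, 1.41 and 2.05 in the plus-dox group and at 1.76, 2.30, 1.97 and 1.50 in the off-dox group. Groups overlapped for both genes. Log2 fold changes of Vldlr were 0.16 (SE 0.27) and 0.34 (SE 0.27) in plus-dox and off-dox against no-dox, those of Lrp8 were 0.11 (SE 0.19) and 0.19 (SE 0.19), and all 4 intervals held 0. Vldlr was 1.83 ± 1.13, 1.78 ± 0.843 and 1.84 ± 0.195 times as high as Lrp8 in the groups without dox, with dox and after its withdrawal. The ratio varied between tumors, from 0.914 in no-dox 2, where Vldlr was below Lrp8, to 3.45 in no-dox 4.

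Of the sorting receptors, Lrp10 was abundant and even across tumors while Sorl1 was lower and more varied. Lrp10 was at 40.3, 45.8, 35.7 and 47.5 RPKM in no-dox tumors 1 to 4, at 42.2, 54.1, 45.4 and 39.6 in plus-dox and at 42.1, 38.0, 32.3 and 50.4 in off-dox tumors. Its log2 fold changes were 0.11 (SE 0.16, interval -0.24 to 0.46) and -0.02 (SE 0.16, interval -0.38 to 0.33) against no-dox. Sorl1, which returns the amyloid precursor protein from endosomes, was at 1.78, 2.12, 1.29 and 1.89 RPKM in the no-dox group, at 2.22, 1.51, 2.52 and 3.09 in the plus-dox group and at 2.42, 2.16, 2.22 and 2.03 in the off-dox group. Of the plus-dox tumors 3 were above every no-dox tumor, and plus-dox 2, 1 of the tumors set apart above, was not. The log2 fold change of Sorl1 was 0.41 (SE 0.20, interval -0.01 to 0.84) for plus-dox and 0.35 (SE 0.20, interval -0.08 to 0.78) for off-dox.

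Lrp4, the agrin receptor, was scarce and Lrp2 nearly absent. Lrp4 was at 0.650, 0.912, 0.595 and 0.689 RPKM in the no-dox group, at 0.796, 0.828, 0.691 and 1.03 in the plus-dox group and at 0.846, 0.769, 0.926 and 0.882 in the off-dox group. Groups overlapped, with log2 fold changes of 0.24 (SE 0.16) and 0.30 (SE 0.16). Lrp2, the large receptor of absorptive epithelia such as the proximal tubule, had 3, 8, 6 and 4 reads in no-dox tumors, 21, 3, 19 and 7.90 in plus-dox and 1, 7, 105 and 11 in off-dox tumors. A single tumor, off-dox 3, held 105 of these reads, or 0.264 RPKM, and it decided the fitted difference between off-dox and no-dox, with a log2 fold change of 2.84 (SE 1.10, interval 0.45 to 5.23) that became 0.54 without it. Against plus-dox the change went from 1.42 (SE 1.01) to -0.87 without that tumor.

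**Figure D2:**
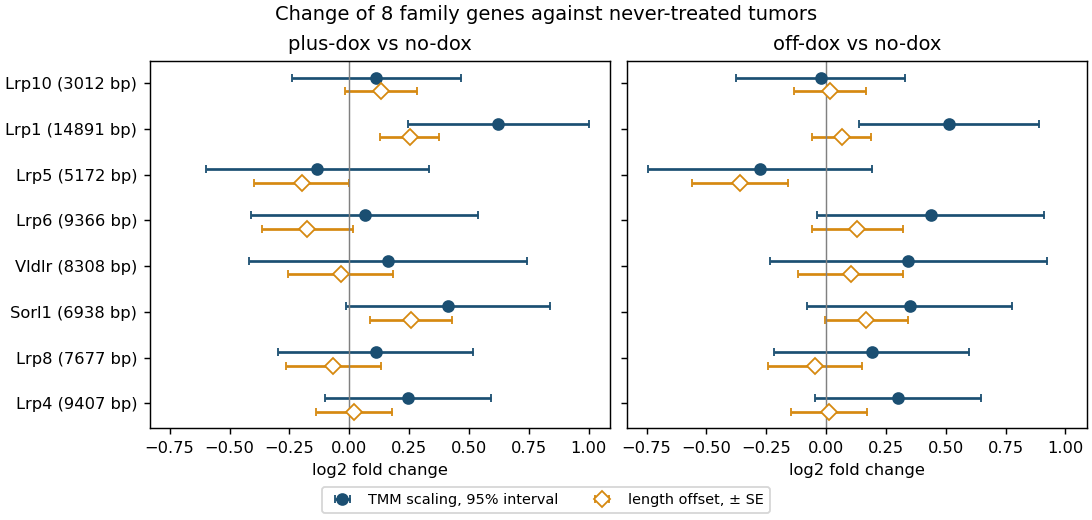
Log2 fold changes of 8 genes (Lrp2 left out for its few reads) in plus-dox and off-dox against no-dox tumors, with exonic length beside each symbol. Filled circles give the fitted change with its 95% interval and open diamonds the change ± SE once a trend on gene length is taken out, and Lrp1 is the gene that shifts most, from 0.62 to 0.25 and from 0.51 to 0.07.

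Changes against no-dox were then set beside exonic length. Among genes over 1 RPKM, the median log2 fold change of plus-dox against no-dox went from -0.12 in 1179 genes of up to 1000 bp and -0.14 in 2999 genes of 1000 to 2000 bp through -0.05, 0.08 and 0.22 in the following classes to 0.35 in 80 genes over 12000 bp. For off-dox against no-dox the same medians were -0.11, -0.17, -0.06, 0.10, 0.30 and 0.47. Of the 80 genes over 12000 bp, 91.3% were positive for plus-dox and 93.8% for off-dox against no-dox. Between off-dox and plus-dox the medians ran only from -0.04 to 0.09. Long genes were thus higher in the tumors that had received dox, and of the 9 family genes Lrp10 alone has under 4000 bp of exons. The percentage of mapped reads that fell on genes, given above, moved in the same tumors.

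Set beside genes of like length, Lrp1 was less apart. For plus-dox against no-dox, 12 of the other 79 genes over 12000 bp had a larger log2 fold change than its 0.62 (median 0.34), and for off-dox 25 of 79 exceeded its 0.51 (median 0.47). Sorl1 was exceeded by 284 of 2999 genes of 4000 to 8000 bp for plus-dox and by 546 for off-dox. Among 404 other genes of 8000 to 12000 bp, Vldlr was exceeded by 266 for plus-dox and 174 for off-dox and Lrp6 by 324 and 110. Lrp5 lay low for its length, exceeded by 2496 and 2737 of 2999 genes. These ranks are descriptions and carry no test.

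**Figure D3:**
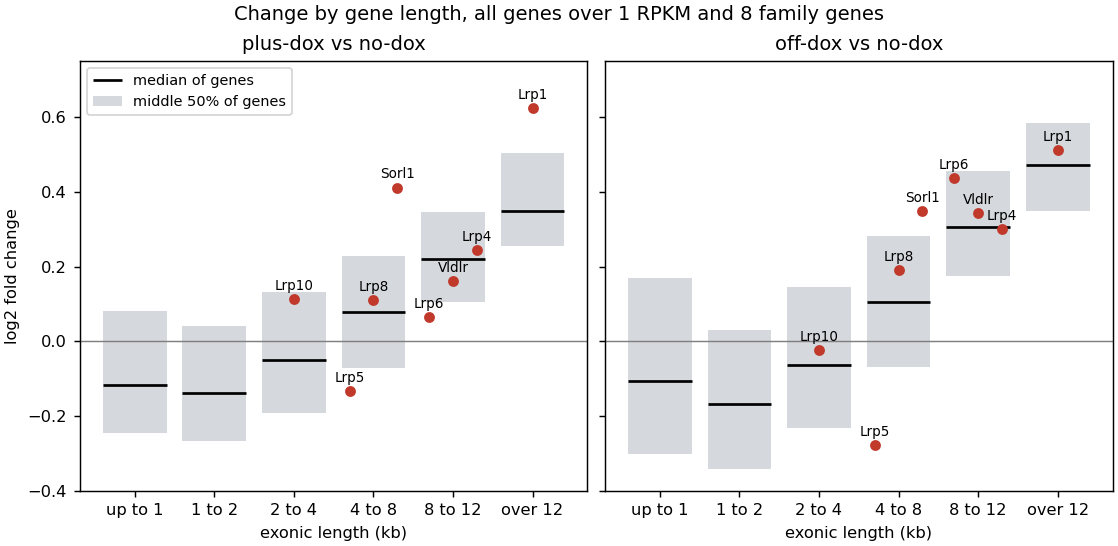
Log2 fold change by exonic length for genes over 1 RPKM in plus-dox (left) and off-dox (right) against no-dox tumors. Black lines are class medians, grey boxes the middle 50% of genes and red points 8 family genes, and the medians climb from -0.12 to 0.35 and from -0.11 to 0.47, with Lrp1 inside the box of its class for off-dox and above it for plus-dox.

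When a trend of log2 CPM (counts scaled to the reads of each tumor) on log2 exonic length was estimated in each tumor and given to edgeR as an offset, an alternative chosen after seeing the data, the Lrp1 log2 fold change was 0.25 (SE 0.12) for plus-dox and 0.07 (SE 0.12) for off-dox. Lrp4 went from 0.24 to 0.02 and from 0.30 to 0.01, and Lrp6 from 0.44 to 0.13 for off-dox. Sorl1 went from 0.41 to 0.26 (SE 0.17) and from 0.35 to 0.17 (SE 0.17), while Lrp5 moved away from 0, to -0.20 (SE 0.20) and -0.36 (SE 0.20). The median of the 9 genes came to 0.02 and 0.07, with 5 and 7 of 9 positive, and 0 were called. Why long genes differed between the groups was not tested.

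The family was also set beside long genes tumor by tumor. The mean log2 CPM of 482 genes over 8000 bp (family genes left out) ran from 5.81 to 6.05 in the no-dox group, 6.0 to 6.31 in the plus-dox group and 6.16 to 6.36 in the off-dox group. Over the 12 tumors the log2 CPM of Lrp1 followed it with Pearson's r 0.84 (Spearman's rho 0.84), and r was 0.76 without no-dox 1 and 3, the tumors farthest from the median, and 0.70 with group means removed. Sorl1 (r 0.79, rho 0.83) and Vldlr (r 0.73, rho 0.83) behaved alike, with r of 0.73 and 0.76 once group means were removed. Lrp10 (r -0.00, rho -0.08), Lrp5 (r -0.08, rho -0.13) and Lrp8 (r 0.21, rho 0.15) did not follow the long genes, nor did Lrp4 once the 2 tumors were left out (r 0.04, from 0.55). These values were looked at after the length pattern was seen and are given without p.

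**Figure D4:**
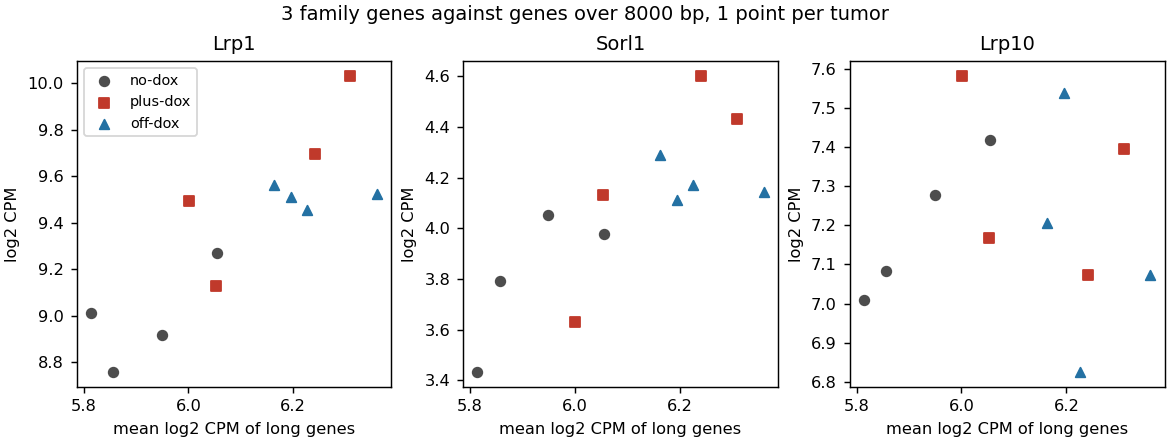
Log2 CPM of Lrp1, Sorl1 and Lrp10 against the mean log2 CPM of 482 genes over 8000 bp, 1 point per tumor and marked by group. Over all tumors Lrp1 and Sorl1 climb with the long genes (r 0.84 and 0.79) and Lrp10 does not (r -0.00). With group means removed, r was 0.70 for Lrp1 and 0.73 for Sorl1. Within the off-dox group alone neither gene climbed. There off-dox 1 was lowest for the long genes (6.16) and highest for Lrp1 (9.56) and Sorl1 (4.29).

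Markers of other cell types also differed between the tumors, and their levels were set beside the family. The summed RPKM of 10 epithelial markers was 2290 to 3054 in the no-dox group, 1364 to 2013 in the plus-dox group and 1054 to 2623 in the off-dox group. Fibroblast markers (10) summed to 1209 to 2157, 1714 to 3229 and 1402 to 1623, endothelial markers (10) to 40.3 to 58.3, 49.4 to 152 and 45.1 to 68.4, and macrophage markers (10 of 11 in the files) to 1256 to 1574, 1180 to 1445 and 1016 to 1764. Skeletal muscle markers (10) summed to 12.0 to 206, 160 to 502 and 13.3 to 1366 RPKM, and adipocyte markers (10) to 40.3 to 1379, 45.3 to 860 and 56.4 to 395. No marker was at 0 in all tumors of a group. Plus-dox tumors thus had less epithelial marker RNA than every no-dox tumor, while muscle and fat marker RNA varied within groups by far more than any family gene other than Lrp2, and the part of these cells in the Lrp1 difference was not tested.

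Across the 12 tumors, 54 relations of the 9 genes to the 6 marker scores were computed, and 0 passed an adjusted p of 0.1 in a permutation test with 100000 resamples. For Lrp1 the r values were -0.03 with epithelial, 0.30 with fibroblast, 0.44 with endothelial, -0.12 with macrophage, 0.20 with muscle and -0.42 with adipocyte markers. The lowest adjusted p was 0.36, for Lrp10 and macrophage markers (r -0.73, permutation p 0.0067; rho -0.57), and its r was -0.41 without off-dox 3 and 4. Lrp5 tended to be high where epithelial markers were (r 0.53, rho 0.66, adjusted permutation p 0.44 for r and 0.69 for rho), with r 0.68 without plus-dox 2 and off-dox 4. Sorl1 and epithelial markers had r 0.45 (rho 0.40, adjusted permutation p 0.57 and 0.81), r 0.28 without the same tumors, and 0.85 with group means removed, the only 1 of the 54 relations that passed when group means were taken out.

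Within the family, 36 pairs of genes were correlated over the 12 tumors and 0 passed the adjusted limit, with a lowest adjusted permutation p of 0.38 for r and 0.17 for rho. Lrp1 went highest with Vldlr (r 0.67, rho 0.72) and with Sorl1 (r 0.64, rho 0.76), the same genes that followed the long genes. The genes most like each member were then named from 12693 genes over 1 RPKM by r over 12 tumors, as a description. For Lrp1 they were Hspg2 (r 0.93), which encodes the matrix proteoglycan perlecan, Ahnak (r 0.92), a giant membrane scaffold protein, and Zmiz1 (r 0.91), with exons of 14177, 18543 and 7525 bp. For Lrp5 they were Vps53 (0.96), Man2b2 (0.95) and Cpox (0.94), for Lrp6 Aebp2 (0.95), Vps37a (0.92) and Map3k2 (0.92), and for Lrp10 Slc39a7, Lasp1 and Tmem214 (each 0.94). Vldlr went with Lemd3 (0.92), Vegfa (0.91) and Pcmtd1 (0.90), Sorl1 with Scrib, Pcnxl3 and Rgs12 (each 0.92), and Lrp8 with Gas2l3 (0.93), Sass6 (0.90) and Mbd4 (0.90), of which Gas2l3 and Sass6 act in cell division or centriole duplication.

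The partners of these receptors were taken from 9 lists with 116 genes, of which 112 were tested. None was called by edgeR's quasi-likelihood test in any comparison. In the order plus-dox against no-dox, off-dox against no-dox and off-dox against plus-dox, its smallest adjusted p was 0.32, 0.087 and 1. At an unadjusted p under 0.05 there were 17, 18 and 8 of the 112 genes, beside 2400, 3586 and 537 of all 17561 genes. DESeq2 called 1, 0 and 0 of the listed genes with moderated fold changes (Sfrp5). Without moderation it called 2 for plus-dox against no-dox (Lgr5 and Sfrp5). The median log2 fold changes of the listed genes were 0.02, -0.03 and -0.06. Of the 112 genes, 5 were higher and 4 lower in every plus-dox than in every no-dox tumor (4.3% and 3.46% of all genes), 3 higher and 8 lower in every off-dox than in every no-dox tumor (4.99% and 6.4%), and 0 higher and 4 lower in every off-dox than in every plus-dox tumor (0.552% and 0.934%).

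Other receptors of the family (7 of 8 tested) had medians of 0.26 for plus-dox and -0.02 for off-dox against no-dox. Lrp12 was at 5.96 ± 0.439, 7.05 ± 1.30 and 7.28 ± 1.65 RPKM in the groups without dox, with dox and after its withdrawal (the order used from here on) and Ldlrad3 at 6.18 ± 1.05, 4.05 ± 1.12 and 4.32 ± 1.16. The sortilin family apart from Sorl1 (4 genes, medians -0.69 and -0.31) was led by Sort1 with 9.02 ± 3.05, 5.84 ± 3.29 and 5.78 ± 2.27 RPKM and Sorcs2 with 5.62 ± 0.554, 6.09 ± 1.62 and 5.51 ± 1.80, and Sorcs1 was under 0.03 RPKM in every tumor.

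Ligands (21 tested, medians 0.20 and 0.07) were led by 3 genes, each above every family gene in level. Clu (clusterin) was at 3254 ± 1030 RPKM in the no-dox group, 2042 ± 749 in the plus-dox group and 2102 ± 712 in the off-dox group, Apoe (apolipoprotein E) at 1193 ± 94.7, 1039 ± 112 and 1054 ± 270, and Fn1 (fibronectin) at 411 ± 76.9, 537 ± 102 and 583 ± 218. The differences of these 3 genes lay within the spread between tumors. Calr and Thbs2, named here after their values were seen, each had groups that did not overlap, and neither was called. Calr was lower in every off-dox (346 to 459 RPKM) than in every no-dox tumor (473 to 573), as were 6.4% of all genes. Thbs2 was lower in every off-dox (41.1 to 51.1) than in every plus-dox tumor (61.4 to 75.2), as were 0.934% of all genes. Chaperones and enzymes of receptor turnover (11 tested, medians -0.13 and -0.22) were led by Hsp90b1 with 289 ± 33.3, 262 ± 37.2 and 252 ± 40.5 RPKM, Ncstn (nicastrin of gamma-secretase) with 61.7 ± 8.98, 50.5 ± 3.14 and 50.5 ± 7.36, and Furin with 40.4 ± 6.05, 44.1 ± 4.64 and 41.6 ± 4.54. Mesdc2, the chaperone that folds Lrp5 and Lrp6 and named here after its values were seen, was lower in every off-dox (19.4 to 24.7 RPKM) than in every no-dox tumor (26.2 to 32.5), as were 6.4% of all genes, with an adjusted p of 0.12 in edgeR's quasi-likelihood test.

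Adaptors and sorting proteins (14 of 15 tested, medians -0.02 and -0.02) were led by Vps35 of the retromer with 85.4 ± 12.6, 78.7 ± 4.77 and 83.2 ± 9.05 RPKM, Shc1 with 49.5 ± 2.18, 45.9 ± 3.16 and 44.2 ± 2.5, and Dab2, an endocytic adaptor, with 36.2 ± 4.69, 46.3 ± 9.64 and 50.6 ± 17.1. The lowest adjusted p of any listed gene, 0.087 in edgeR's quasi-likelihood test for off-dox against no-dox, belonged to Gga3, a Golgi adaptor of sorting receptors, at 8.55 ± 0.998 RPKM before any dox and 11.7 ± 1.82 after withdrawal. Its log2 fold change of 0.48 (SE 0.11) was under the 1.5-fold limit. Snx17, the sorting nexin that recycles Lrp1, went the other way, with 48.1 ± 2.53 RPKM in the no-dox group, 41.4 ± 3.57 in the plus-dox group and 38.8 ± 3.57 in the off-dox group (adjusted p 0.12 for off-dox against no-dox). Gga3 and Snx17 were singled out after their values were seen.

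For Lrp5 and Lrp6, 29 Wnt receptors, ligand handling proteins and destruction complex genes had medians of 0.02 and -0.04. Ctnnb1 (beta-catenin) was at 350 ± 71.5, 284 ± 43.7 and 266 ± 43.4 RPKM, Wls, which carries Wnt proteins to the cell surface, at 142 ± 7.54, 107 ± 20.9 and 99.2 ± 14.9, and Csnk1a1 at 114 ± 5.25, 95.1 ± 5.31 and 90.9 ± 8.65. For Wls the 4 no-dox tumors (133 to 150 RPKM) were above all off-dox (81.3 to 117) and all plus-dox tumors (81.8 to 126), and for Csnk1a1 they (107 to 119) were above all off-dox (80.5 to 101) and all plus-dox tumors (88.6 to 101), as 6.4% and 3.46% of all genes were. Wls had log2 fold changes of -0.50 (SE 0.14, adjusted p 0.10 in edgeR's quasi-likelihood test, not called) for off-dox and -0.42 (SE 0.14) for plus-dox. Wnt inhibitors (12 of 14 tested, medians 0.34 and 0.21) were led by Sfrp4, with 6.29 ± 3.75, 23.6 ± 38.9 and 16.5 ± 19.4 RPKM, Kremen1, which removes Lrp6 with Dkk proteins, with 12.8 ± 0.566, 17.2 ± 3.88 and 14.1 ± 2.59, and Sfrp2, with 12.0 ± 3.33, 17.3 ± 10.7 and 8.38 ± 1.16. Wnt target genes (11 tested, medians 0.09 and -0.08) included Ccnd1 (cyclin D1) at 104 ± 19.3, 117 ± 45.3 and 120 ± 46.1 RPKM, Myc at 24.5 ± 2.74, 26.2 ± 5.06 and 23.8 ± 3.29, and Tcf7 at 8.59 ± 1.24, 8.01 ± 1.11 and 7.47 ± 1.11, with groups that overlapped for each. Several scarcer genes of these lists, named after their values were seen, had groups that did not overlap. Lgr5, a target gene and R-spondin receptor, was higher in every plus-dox tumor (4.75 to 7.14 RPKM) than in every no-dox (2.83 to 4.42) and every off-dox tumor (3.39 to 4.44), and the target gene Sp5 was lower in every off-dox (0.175 to 0.408) than in every no-dox tumor (0.444 to 0.605). Among the inhibitors, Sfrp5 and Sostdc1 were lower and Dkk1 higher in every plus-dox than in every no-dox tumor. Their log2 fold changes were -1.49 (SE 0.41), -1.64 (SE 0.68) and 3.29 (SE 0.70), and none was called by edgeR's quasi-likelihood test. Sfrp5 averaged 0.600 RPKM in the no-dox and 0.217 in the plus-dox group. Sostdc1 averaged 0.171 and 0.0528 RPKM, and Dkk1 0.00932 and 0.114. Sostdc1 and Dkk1 thus lay under the limit of 0.25 RPKM and could not be called.

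For Lrp4, the agrin pathway (6 tested, medians -0.16 and 0.00) held ample ligand beside little receptor. Agrn (agrin) was at 96.2 ± 27.8 RPKM in the no-dox group, 87.8 ± 43.0 in the plus-dox group and 83.4 ± 27.6 in the off-dox group, lowest in plus-dox 2 at 24.6. The acetylcholine receptor subunits Chrnb1 (25.3 ± 2.47, 21.9 ± 4.80 and 22.4 ± 4.75 RPKM) and Chrna1 (2.33 ± 2.96, 5.97 ± 8.97 and 3.74 ± 3.69) overlapped between the groups, and Chrna1 differed most within groups, as the muscle markers did.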

How the data were processed

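Per the labels and the study's methods, polyA, non-stranded libraries of whole tumors were sequenced as 50-bp reads. The authors processed them with CASAVA (version 1.8.2), Bowtie (0.12.8), TopHat (1.4.1) and bedtools (2.16.2) on mm9, with 1 unstranded model per gene. The deposited files hold an expected count per gene (coverage of unambiguous exons in reads, not normalized, sometimes fractional) and the authors' RPKM. Overlapping antisense genes cannot be told apart.

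Counts were rounded. edgeR (version 4.0.16) was run with TMM scaling, at least 10 counts summed over 12 tumors and 1 fit of the 3 groups, without covariates, for its quasi-likelihood test. Benjamini-Hochberg adjustment ran over 17561 genes. Calls need more than 250 bp of exons, more than 0.25 RPKM on average, more than a 1.5-fold change and an adjusted p below 0.1, the authors' limits. Log2 CPM values use a prior count of 2. DESeq2 (version 1.42.0), RLE scaling, no filter, other samples, a replicate block and a length offset (lowess per tumor) were alternatives. The fits were tested on simulated data.

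The members and lists were chosen with earlier results of these data known. Named are all members, Trp53, the 3 genes of each list with the highest mean RPKM, genes called, and the 3 genes most correlated with each member over 1 RPKM. Genes named outside this rule are marked. Some items the rule names are not reported here. No 2 libraries agreed within sampling noise (chi-square per gene 23.4 to 191 between tumors of a group).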

Additional observations from a re-analysis of the deposited data

Results flagged for a closer look

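Within the 27 sets of 4 values (9 genes in 3 groups), 1 value stood far from the others by Dixon's 95% limit, about what chance gives, which marks about 1 in 20 sets. Lrp2 was at 0.264 RPKM in off-dox 3 against 0.00263 to 0.0237 in the other off-dox tumors. It rests on 105 reads. Off-dox 3 also had the highest skeletal muscle marker score of the 12 tumors (mean log2 CPM 7.39) and the highest macrophage marker score (7.84), and whether the reads of Lrp2 came from host tissue was not tested.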

How the results depend on the processing

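Family genes called stayed at 0 in each comparison under every alternative run except DESeq2 without moderated fold changes, which called 1 (Lrp1, plus-dox against no-dox). They also stayed at 0 to 0 with any 1 tumor left out. Counts over all genes were less stable. For plus-dox against no-dox they were 0 with edgeR's quasi-likelihood test, 90 with moderated and 128 with unmoderated DESeq2, and 0 to 3 with 1 tumor left out (3 without plus-dox 1). For off-dox against no-dox, 235 genes became 396 and 615 with moderated and unmoderated DESeq2, 122 without a count filter, 3 with 8 tumors alone, 0 at an adjusted p under 0.05, 65 with the length offset and 471 without plus-dox 2 and off-dox 4 (both chosen after seeing the data). With 1 tumor left out it ran from 0 to 789. It was 789 without off-dox 1, 19 without plus-dox 3, 1 without no-dox 3 and 0 without no-dox 1, 2 or 4, plus-dox 4 or off-dox 2, 3 or 4. For off-dox against plus-dox, 0 became 4 and 6 with DESeq2 and ran from 0 to 1 (1 without off-dox 1). The causes were not tested.

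The labels number the tumors 1 to 4 in each group. Same-numbered tumors correlated from -0.45 to 0.57 in their deviations from group means (mean -0.09, 2 of 12 pairs over 0.1) and 0 tumors correlated best with their own number. No pairing by number was seen in these correlations. They hold every difference between tumors, so a smaller effect shared by number could be missed. Blocking on the number, 0 genes were called for off-dox against no-dox, and the Lrp1 log2 fold change was 0.61 for plus-dox and 0.53 for off-dox.

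Of 432 member fold changes under alternatives that could alter them (tumors of a group outside the comparison are not counted), 425 moved by less than the spread between replicates. Those that moved more were Lrp2 for off-dox (0.51 with moderated DESeq2, and 0.54 against no-dox and -0.87 against plus-dox without off-dox 3) and Lrp1 and Lrp4 under the length offset (given above). A sign change was seen in 21, of which 1 was Lrp1, for off-dox against plus-dox. With group means removed 1 of 54 relations to marker scores passed, and 0 to 0 with 1 tumor left out. Lrp2 is limited by its depth, with 21 reads or fewer in each tumor but off-dox 3.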
